A study of Zea mays with 12 samples.

Results

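Pyruvate, orthophosphate dikinase (PPDK) is encoded in maize by a pair of genes, pdk1 (Zm00001d038163) and pdk2 (Zm00001d010321), and their transcripts were followed in developing seeds. Both genes were taken by identifier, 2 of the 46430 identifiers in each count table, and both passed the filter on low counts in every comparison. The seeds came from wild type (WT, marked AA) and from the mutant zmmsh7-2 (marked aa, a CRISPR knockout of MSH7, a plant MutS homolog of DNA mismatch repair), and were collected 7 and 14 days after pollination (DAP). RNA-seq was made from 3 libraries in each of the 4 groups, 12 in all. No further treatment or shared allele is named in the labels, which do not give the inbred background, the number of mutant lines or the number of seeds or ears behind a library. The tissue is labelled as seed, so endosperm, embryo and maternal tissue were measured together. In such bulk samples fewer cells of a type and less RNA per cell cannot be told apart.

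PPDK converts pyruvate, ATP and phosphate to phosphoenolpyruvate, AMP and pyrophosphate, and the reaction is reversible. In maize leaves the chloroplast form, made from pdk1, regenerates phosphoenolpyruvate for C4 photosynthesis, and a cytosolic form is made from an internal promoter of the same gene. The product of pdk2 is cytosolic. In maize endosperm cytosolic PPDK is abundant during grain filling, and the genes are known targets of Opaque2, a bZIP transcription factor that also activates zein storage protein genes.

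Library totals ranged from 16854595 to 21932590 counts. Replicates differed by more than sampling noise, by 1.66 to 2.38 times the chi-square that counting alone would give, so no library was counted as a duplicate. The labels are silent on whether replicates are separate plants or ears. The p-values are therefore relative to a spread between libraries that may be technical. The identifiers of MSH7 and of seed tissue markers are not paired with names in the sources used here, so the knockout and the tissue were not checked. Each stage has its own count table, so stage and any batch effect between tables cannot be told apart.

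Both genes differed most between the stages. The gene pdk2 had 2706, 2839 and 2887 counts in the 3 wild-type libraries at 7 DAP and 3399, 2925 and 3341 in those of the mutant. At 14 DAP it had 224273, 208315 and 209060 counts in wild type and 163126, 200652 and 191147 in the mutant. Every library of 14 DAP thus held far more pdk2 reads than any library of 7 DAP. The gene pdk1 had 3968, 4194 and 4193 counts in wild type and 3927, 3206 and 3818 in the mutant at 7 DAP. At 14 DAP pdk1 had 77176, 70003 and 71133 counts in wild type and 63982, 77920 and 73947 in the mutant. The stages did not overlap for pdk1 either. The share of all genes whose stages did not overlap was not counted, so this only describes the libraries.

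In wild type pdk2 rose 93.2-fold from 7 to 14 DAP, from 127 ± 1.91 to 11806 ± 108 CPM (SD, n = 3 each). CPM are read counts scaled to a common library size, here with edgeR's TMM composition factors over all 12 libraries, and are not divided by transcript length. On the log2 scale the change was 6.54 (SE 0.02), with an edgeR adjusted p = 1.76e-155. Over the same time pdk1 rose 21.6-fold, from 186 ± 1.23 to 4015 ± 15.9 CPM (SD, n = 3 each; 4.44 on the log2 scale with SE 0.02; edgeR adjusted p = 1.08e-137). In wild type 80.5% of the 25344 genes tested were called, 40.8% as rising and 39.8% as falling, so the call alone says little about either gene. The size of the rise stood further out. Only 169 genes had a larger log2 fold change than pdk2 and 402 a larger one than pdk1, while the median absolute log2 fold change of all genes tested was 0.70.

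In the mutant pdk2 rose 71.0-fold, from 147 ± 0.60 to 10457 ± 41.4 CPM (SD, n = 3 each; 6.15 on the log2 scale with SE 0.02; edgeR adjusted p = 1.83e-153). There pdk1 rose 24.4-fold, from 167 ± 4.75 to 4069 ± 31.6 CPM (SD, n = 3 each; 4.61 on the log2 scale with SE 0.02; edgeR adjusted p = 6.48e-139). In the mutant 78.8% of genes were called, 39.3% as rising and 39.6% as falling, and 205 of 25344 genes had a larger log2 fold change than pdk2 and 374 a larger one than pdk1. With library totals as the only scaling the median of all genes fell by 0.30 on the log2 scale in either genotype, and 7480 genes rose and 13242 fell in wild type against 10332 and 10077 with composition factors. In the mutant 7202 rose and 13182 fell on that scaling, against 9948 and 10025. The log2 fold changes were then 6.23 for pdk2 and 4.12 for pdk1 in wild type, and 5.86 and 4.32 in the mutant. Each was still far above the median.

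**Figure D1:**
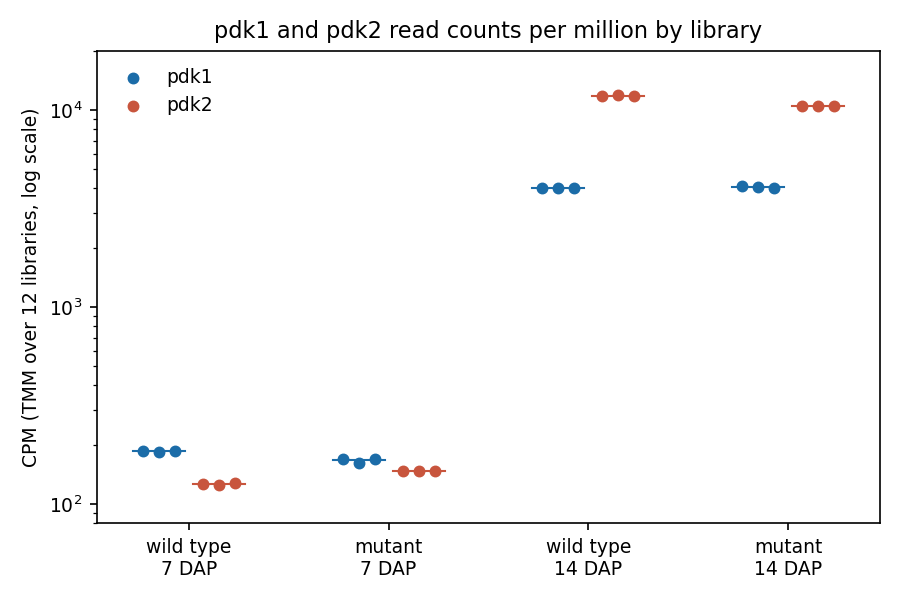
Level of pdk1 and pdk2 in each of the 12 libraries, in CPM on a log axis, not divided by transcript length; points are libraries and lines are the means of 3. Over both genes and genotypes the points lie between 125 and 187 CPM at 7 DAP and between 4004 and 11928 CPM at 14 DAP.

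As a share of all counts, pdk2 went from 0.0138% ± 0.0002 to 1.03% ± 0.008 in wild type and from 0.0167% ± 0.0001 to 0.970% ± 0.004 in the mutant (SD, n = 3 each). The share of pdk1 went from 0.0202% ± 0.0001 to 0.350% ± 0.002 in wild type and from 0.0189% ± 0.0005 to 0.378% ± 0.003 in the mutant. Together both genes took 1.38% ± 0.006 of counts in wild type at 14 DAP and 1.35% ± 0.006 in the mutant (SD, n = 3 each). The spread between replicates was small throughout, with a coefficient of variation of the CPM between 0.37% and 2.63% within groups when libraries were scaled by stage. Counting error alone gives 1.56% to 1.89% at 7 DAP and 0.22% to 0.37% at 14 DAP for a single library. At 7 DAP the observed spread lay below it for pdk2 in the mutant (0.37% against 1.76%). The same held in wild type for pdk1 (0.64% against 1.56%) and pdk2 (1.49% against 1.89%). For pdk1 in the mutant it lay above (2.63% against 1.66%). An SD below counting error understates the spread to be expected between libraries.

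Whether the mutant differed from wild type was asked next, at 7 DAP. Levels in the comparisons of genotype are CPM with composition factors of the stage alone, so they differ somewhat from the levels given above for the same libraries. The level of pdk1 was 206, 205 and 207 CPM in the wild-type libraries and 188, 180 and 188 CPM in the mutant libraries. All 3 mutant libraries were below all 3 wild-type libraries. The mean fell from 206 ± 1.31 to 185 ± 4.87 CPM (SD, n = 3 each), a 1.11-fold difference with a log2 fold change of −0.15 (SE 0.03, edgeR adjusted p = 1.64e-06). The level of pdk2 was 140, 139 and 143 CPM in the wild-type libraries and 163, 164 and 164 CPM in the mutant libraries. For this gene all 3 mutant libraries were above all 3 wild-type libraries. The mean was 141 ± 2.09 CPM in wild type and 164 ± 0.61 CPM in the mutant (SD, n = 3 each), 1.16-fold higher with a log2 fold change of 0.22 (SE 0.03, edgeR adjusted p = 4.60e-10).

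The reads counted for the paralogs therefore moved in opposite directions at 7 DAP, and both changes were small beside those of other genes. How reads that align to both paralogs were divided is not known, and its part in these opposite changes was not tested. At this stage 71.1% of the 24096 genes tested were called, 35.5% higher and 35.6% lower in the mutant, so a call in either direction was common. The share of all genes whose genotypes did not overlap was not counted at either stage, so a lack of overlap is only a description of the libraries. With library totals only, 9558 genes were higher and 7694 lower, against 8558 and 8579 with composition factors. The median absolute log2 fold change of all genes was 0.38, and 78.0% of genes had a larger one than pdk1 and 69.0% a larger one than pdk2. From wild type to mutant pdk1 fell by 20.7 CPM and pdk2 rose by 23.2 CPM. With library totals only, the log2 fold change was −0.09 for pdk1 and 0.28 for pdk2, both still called. The sum of both genes was 346, 344 and 350 CPM in wild type and 352, 344 and 352 CPM in the mutant, and the genotypes overlapped. The log2 of the sum differed by 0.01 (two-sided exact permutation test p = 0.5, where 3 against 3 libraries cannot go below 0.1), and by 0.004 (without wild-type replicate 2) to 0.021 (without mutant replicate 2) when 1 library was left out. With library totals only, the sum was 337 to 343 CPM in wild type and 350 to 359 CPM in the mutant, without overlap, and the difference was 0.068 (two-sided exact permutation test p = 0.1).

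For pdk2 the genotypes stood in the other order at 14 DAP. Its level was 10562, 10724 and 10596 CPM in the wild-type libraries and 9418, 9473 and 9386 CPM in the mutant libraries, with no overlap. The mean fell from 10627 ± 85.8 to 9426 ± 44.0 CPM (SD, n = 3 each), a 1.13-fold difference with a log2 fold change of −0.17 (SE 0.02, edgeR adjusted p = 3.70e-13). The level of pdk1 was 3634, 3604 and 3605 CPM in the wild-type libraries and 3694, 3679 and 3631 CPM in the mutant libraries, and the genotypes overlapped. Its means were 3614 ± 17.3 CPM in wild type and 3668 ± 32.8 CPM in the mutant (SD, n = 3 each), with a log2 fold change of 0.02 (SE 0.02, edgeR adjusted p = 0.381). The approximate 95% interval of that difference ran from −0.02 to 0.06. With library totals only, pdk1 was called higher in the mutant (log2 fold change 0.11, edgeR adjusted p = 4.90e-06), on a scaling that put the median of all genes at 0.10. On that scaling the log2 fold change of pdk2 was −0.09, still called.

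Of the 23811 genes tested at 14 DAP 63.8% were called, 31.7% higher and 32.1% lower in the mutant. With library totals only, 9532 genes were higher and 6389 lower, against 7557 and 7642 with composition factors. A larger absolute log2 fold change than that of pdk2 was found for 69.7% of genes, and a larger one than that of pdk1 for 96.2%. In reads the change of pdk2 was large for its fold, since from wild type to mutant it fell by 1201 CPM, while the mean of pdk1 was 53.5 CPM higher. The sum of both genes was 14196, 14328 and 14201 CPM in wild type and 13112, 13152 and 13018 CPM in the mutant, without overlap. The log2 of the sum differed by −0.12 between mutant and wild type (two-sided exact permutation test, p = 0.1, again the minimum for 3 against 3), and by −0.034 with library totals only.

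**Figure D2:**
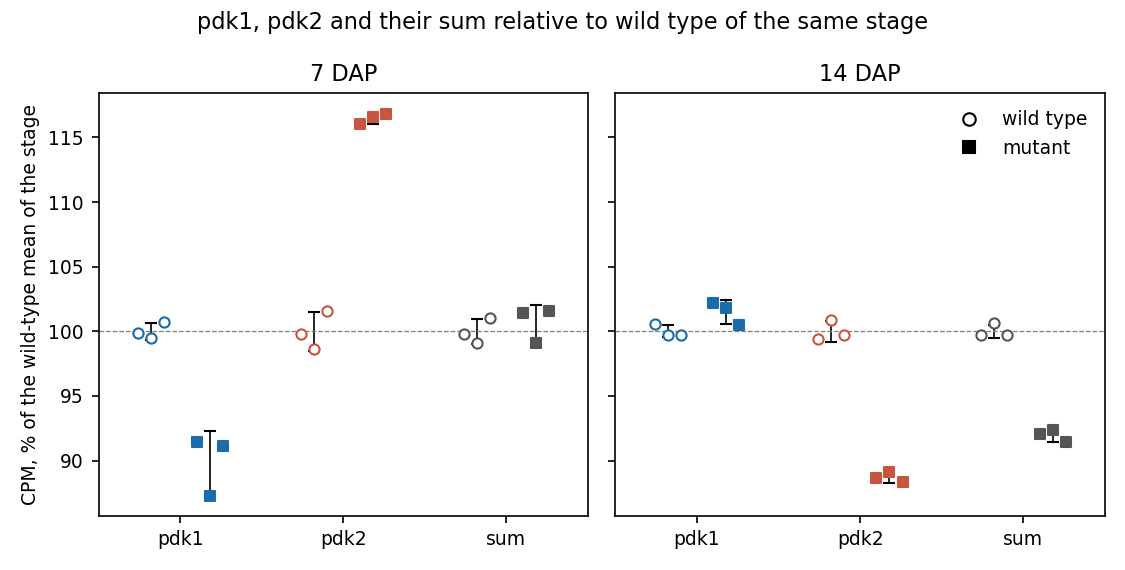
CPM of pdk1, pdk2 and their sum in each library as a percentage of the wild-type mean of the same stage, with 7 DAP on the left and 14 DAP on the right; open circles are wild type, filled squares the mutant, and bars the mean ± SD of 3 libraries (the axis does not start at 0). In the mutant pdk2 lay between 116% and 117% at 7 DAP and between 88.3% and 89.1% at 14 DAP, and pdk1 between 87.2% and 91.5% at 7 DAP and between 100.5% and 102% at 14 DAP.

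The genotype effect differed between the stages for both genes, and in opposite senses. For pdk2 the effect at 14 DAP minus that at 7 DAP was −0.39 in log2 units (SE 0.03, edgeR adjusted p = 3.20e-24). For pdk1 it was 0.17 (SE 0.03, edgeR adjusted p = 5.97e-07). A difference between stages was called for 46.8% of the 25344 genes tested, 22.8% with a higher and 24% with a lower effect at 14 DAP. A larger absolute difference was found for 44.5% of genes in the case of pdk2 and for 71.1% in the case of pdk1. The same contrast can be read as a smaller rise of pdk2 with stage in the mutant (71.0-fold against 93.2-fold) and a larger rise of pdk1 (24.4-fold against 21.6-fold). For the sum of both genes the ratio of the mean CPM at 14 and 7 DAP was 50.7 in wild type and 46.3 in the mutant.

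**Figure D3:**
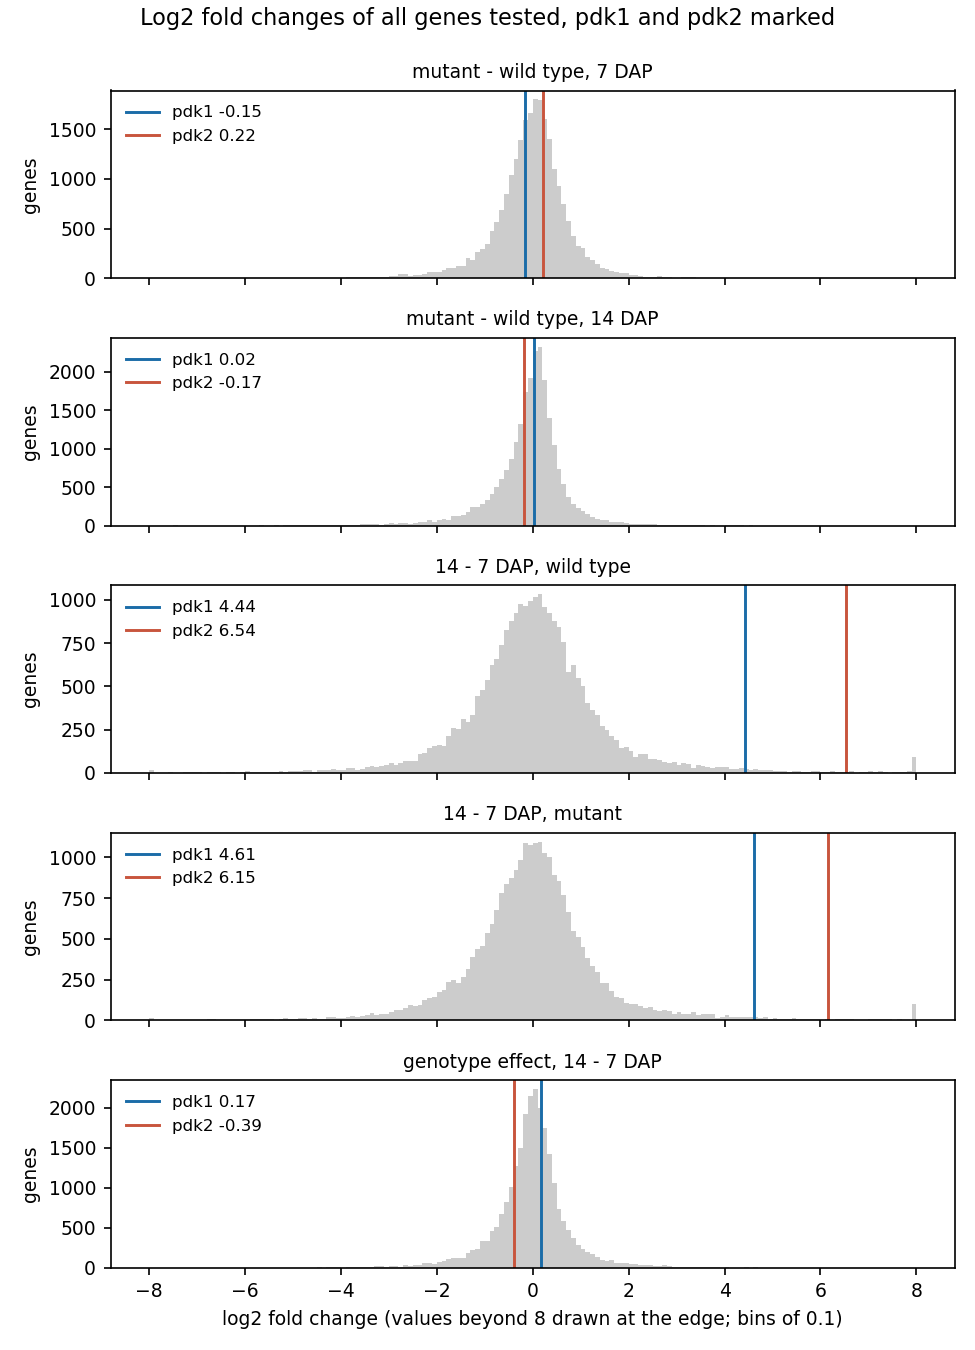
Histograms of the log2 fold change of all genes tested in each of the 5 comparisons (x axis, log2 fold change in bins of 0.1; y axis, number of genes), with vertical lines at pdk1 and pdk2. Both lines lie near the centre for the genotype comparisons and the difference between stages, and far to the right, at 4.44 and 6.54 in wild type and at 4.61 and 6.15 in the mutant, for the change from 7 to 14 DAP.

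The balance between the paralogs was then compared within libraries, where neither library size nor scaling enters. Of the counts of both genes, pdk2 took 40.6% ± 0.21 in wild type and 46.9% ± 0.69 in the mutant at 7 DAP (SD, n = 3 each). At 14 DAP it took 74.6% ± 0.22 in wild type and 72.0% ± 0.14 in the mutant. The lowest and highest libraries were 40.4% and 40.8% in wild type and 46.4% and 47.7% in the mutant at 7 DAP, and 74.4% and 74.8% in wild type and 71.8% and 72.1% in the mutant at 14 DAP, so no groups overlapped. These shares are of reads not divided by transcript length, and they are compared between libraries only, not as the relative amounts of the transcripts.

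The log2 ratio of pdk2 to pdk1 was higher in the mutant by 0.37 at 7 DAP, and its difference at 14 DAP was −0.19. Each had two-sided exact permutation p = 0.1, the smallest that 3 against 3 libraries allow. Averaged over the stages the genotype difference was 0.09 (two-sided exact permutation test within stages, p = 0.415 over 400 assignments, smallest possible 0.005). The assignments of this test mix the genotypes, so the differences within each stage widen the spread it compares with. Its p therefore does not measure 0.09 against the spread between replicates, where the SD of the log2 ratio within groups was 0.010 to 0.040. The stages had opposite signs, and a test of the difference between them was added after the values had been seen. That difference was −0.57 (two-sided exact permutation test within stages, p = 0.005, the smallest possible). With the genotypes apart at both stages and in opposite orders, no other p could result. The assignments also mix the genotypes within each stage, so the test does not ask whether the effect was equal at both stages. From 7 to 14 DAP the log2 ratio rose by 1.82 averaged over the genotypes, a 3.54-fold shift towards pdk2 (two-sided exact permutation test within genotypes, p = 0.005, the smallest possible, also added after the values had been seen). This p was likewise fixed by values already seen, since the stages did not overlap in either genotype. The genotype differences were thus small beside the shift with stage.

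**Figure D4:**
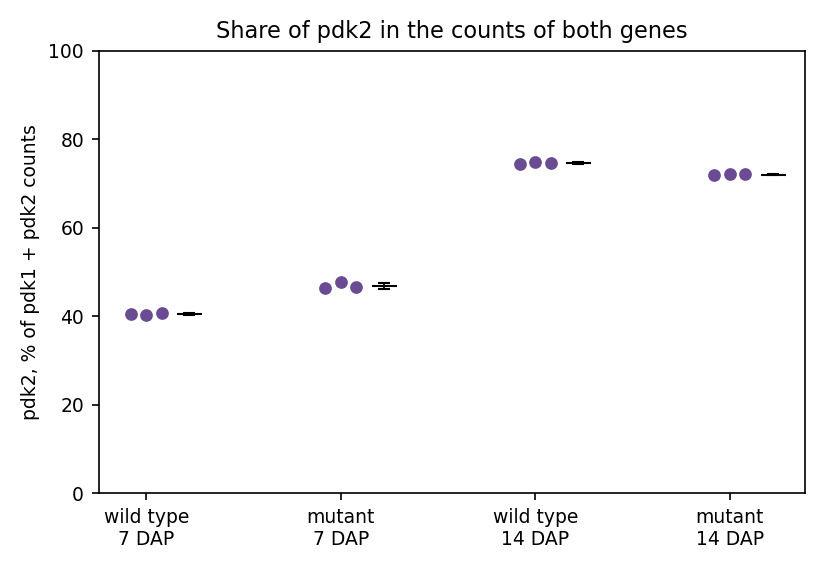
Reads of pdk2 as a percentage of the reads of pdk1 and pdk2 together in each library (y axis, 0 to 100%), by group; points are libraries, and the mark to their right is the mean ± SD of 3. The share was 40.4% to 47.7% at 7 DAP and 71.8% to 74.8% at 14 DAP, with the mutant above wild type at 7 DAP and below it at 14 DAP.

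The paralogs are similar in sequence, and the sources used here do not say how reads that align to both were counted, so the division of reads between them is uncertain. This applies to every value of either gene alone and to their ratio. The sum does not depend on how shared reads were divided, although it would miss reads that were discarded.

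Across the 12 libraries the pattern of each gene was also compared with that of every other gene tested, by the Pearson correlation of log2 CPM. The correlation between pdk1 and pdk2 was 0.999, yet 41 genes stood closer to pdk1 than pdk2 did and 46 stood closer to pdk2 than pdk1 did. The identifier most like pdk1 was Zm00001d016198 (r = 0.9998), with mean levels of 196 and 179 CPM in wild type and mutant at 7 DAP and 1268 and 1239 CPM at 14 DAP. The identifier most like pdk2 was Zm00001d022071 (r = 0.9998), with 63.3 and 66.7 CPM at 7 DAP and 329 and 308 CPM at 14 DAP. Both rose less than the dikinase genes, which a high correlation allows because it compares the shape of the pattern and not its size. The libraries fall into 2 stages that dominate the measure, and 653 genes reached r of at least 0.99 with pdk1 and 645 with pdk2, so these values are a description of shared stage dependence. Neither identifier is paired with a product in the sources used here.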

How the data were processed

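The authors deposited raw read counts of each gene from RNA-seq of maize seeds, in 1 table per stage. The submitters' processing notes name the genome build B73 RefGen_v4 and the tools HISAT2 2.2.1, Trimmomatic 0.39, StringTie 1.3.6, featureCounts 1.6.4 and DESeq2, without their roles. The sources used here do not give the annotation release, the strand setting or the treatment of reads with several alignments. Columns were matched to samples by description, with case kept.

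The names pdk1 and pdk2 come from the list of genes chosen for study. The reference table (Zm-B73-REFERENCE-NAM-5.0) lists 0 of the 44146 nuclear identifiers, so a list of 31 related symbols (Opaque2, PPDK regulatory protein, phosphoenolpyruvate carboxylase and others) was not analysed here. The members, lists and tests were chosen with earlier results of these data known.

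Counts were tested in R 4.3.3 with edgeR 4.0.16 (quasi-likelihood, robust, TMM composition factors, default filter), genotype within stage over 6 libraries and the other comparisons over 12. Calls are at a Benjamini-Hochberg adjusted p below 0.05 over all genes tested. An SE is the size of the log2 fold change over the root of its F statistic, and the interval is 1.96 SE either side. Ratios used a pseudocount of 0.5 and exact permutation tests. Named genes were both members and, for each, the identifier with the highest correlation.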

Additional observations from a re-analysis of the deposited data

Results flagged for a closer look

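The genotype effect differed between the stages for pdk2, with a difference of −0.39 on the log2 scale between the effect at 14 DAP and that at 7 DAP (edgeR adjusted p = 3.20e-24). It was higher in 3 of 3 mutant libraries than in any wild-type library at 7 DAP and lower in 3 of 3 at 14 DAP. The share of all genes with such a separation was not counted. Of all genes tested, 71.1% were called between the genotypes at 7 DAP and 63.8% at 14 DAP, so a call at either stage was common. Whether the separation in opposite orders sets pdk2 apart was not tested.

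The same test was passed by pdk1, with a difference of 0.17 (edgeR adjusted p = 5.97e-07). It was lower in 3 of 3 mutant libraries at 7 DAP, and the genotypes overlapped at 14 DAP. A difference between the stages was called for 46.8% of all genes tested.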

How the results depend on the processing

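The alternatives were DESeq2, RLE factors, library totals only, no filter, a stricter filter (10 counts in every library of a group), the replicate number as a block, either a fit of all 12 libraries or upper-quartile factors, a pseudocount of 5 for ratios and sums, and leaving out each library in turn. Of 218 values of pdk1, pdk2, their ratio or their sum under alternatives, 215 kept their direction and, where tested, their call, or moved by less than the replicate spread where not. All 71 counts of called genes stayed within 1.5 times the main count, but their split did not always hold: with library totals only, 7480 genes rose and 13242 fell in wild type, against 10332 and 10077, and 6320 had a higher and 5657 a lower genotype effect at 14 DAP than at 7 DAP, against 5784 and 6089. The exceptions among the 218 came with library totals only, where pdk1 at 14 DAP was called higher in the mutant (log2 fold change 0.11), and where the log2 difference of the summed level was 0.068 at 7 DAP and −0.034 at 14 DAP. Leaving out a library moved the genotype effect of pdk1 between −0.16 and −0.13 at 7 DAP and between 0.01 and 0.03 at 14 DAP, and that of pdk2 between 0.21 and 0.23 and between −0.18 and −0.17. The difference between stages lay between −0.40 and −0.38 for pdk2 and between 0.15 and 0.19 for pdk1. DESeq2 called 15288 genes at 7 DAP and 13064 at 14 DAP, and 10064 for the difference between stages.

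Deviations of same-numbered libraries of the genotypes were only weakly correlated, at −0.005 to 0.045, against −0.049 to 0.014 for libraries of different number. Of 12 libraries, 7 correlated best with their own number. Correlations this weak do not settle whether a number marks a shared ear, plant or day. With the replicate block the log2 fold changes of pdk1 and pdk2 were −0.15 and 0.22 at 7 DAP and 0.02 and −0.17 at 14 DAP, and 17130 and 15235 genes were called at the 2 stages, against 17137 and 15199 without it. No call of pdk1 or pdk2 changed with the block. For the ratio and the sum within a stage, 3 pairs cannot give a p below 0.25.

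Counting error was at most 0.37% for either gene at 14 DAP, and up to 1.89% at 7 DAP. Library totals moved the genotype effects by more than their SE.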
